A study of Mus musculus with 20 samples.

Results

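Lysosomal hydrolases and membrane proteins were followed in mouse bone marrow-derived macrophages through a list of 41 genes, chosen by name: 11 proteases, 13 glycosidases and sulfatases, 5 lipid hydrolases and their cofactors, 2 sterol transporters, 5 membrane proteins, 3 subunits of the proton pump and 2 regulators. All 41 were among the 46318 genes counted, and all 41 were among the 13307 with enough counts to be tested. The macrophages came from marrow of C57BL/6 female mice grown with 20 ng/mL of a recombinant murine factor that the labels spell M-DSF, and they received their treatment for 24 h. Cells received solvent (DMSO), 50 µM DSHN, 1 µM GW3965, or a combination of DSHN and GW3965 at those doses, which made 4 treatments with 5 libraries labelled as biological replicates of each, 20 in all. According to the series, GW3965 activates LXR, a receptor for oxysterols that drives cholesterol export, and DSHN activates NR0B2, a nuclear receptor said to restrain LXR. No allele, transgene or sorting step is named, and the labels do not say whether the replicates came from separate animals, so p-values measure the spread between these libraries.

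Lysosomes are acidic organelles in which macrophages break down what they engulf, their own worn organelles and the cholesteryl esters of lipoproteins. Their enzymes are made in the endoplasmic reticulum, sorted to the lysosome largely by mannose-6-phosphate tags, and work at the low pH that the vacuolar proton pump keeps up, inside a membrane lined with glycoproteins such as LAMP1 and LAMP2. TFEB and its relatives in the MiT/TFE family switch on many of these genes together by binding a promoter element built around the letters CACGTG.

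The promoters of the listed genes were read first, because many members moved together. RefSeq promoter stretches of build GRCm38.p6, each with 250 bases before and 50 bases after a start site, were at hand for 35 of the 41 members, and not for Ctsb, Ctsh, Galns, Asah1, Npc1 and Atp6v0d2. The letters CACGTG, which read the same on both strands, stood in a promoter of 13 of these 35 members (37.1%), beside 8.09% of 27025 genes and 7.15% of 32851 promoters of the same length. The longer TCACGTGA, which contains CACGTG and also reads the same on both strands, stood in 6 of the 35 (17.1%), beside 1.12% of genes and 0.974% of promoters. These 27025 are all genes with a promoter stretch, whether expressed here or not. The share among the 13307 tested genes alone was not taken. A match is a description of letters and not of binding. The 9 stretches below are shown because they belong to members described in the results and span the kinds of match found. Capitals mark CACGTG, or TCACGTGA where the longer form is present, and each is written 5′ to 3′ on the strand of its gene.
Lamp1: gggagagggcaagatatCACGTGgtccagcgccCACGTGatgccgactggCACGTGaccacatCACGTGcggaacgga
Mcoln1: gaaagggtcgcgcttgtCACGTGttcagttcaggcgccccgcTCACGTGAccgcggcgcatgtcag
Gla: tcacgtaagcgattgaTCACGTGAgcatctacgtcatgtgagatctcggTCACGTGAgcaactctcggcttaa
Ctsd: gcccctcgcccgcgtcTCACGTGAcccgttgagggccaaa
Atp6v0d1: ccaggccctactgcggTCACGTGA
Ctsa: aacaatgagcaaactgTCACGTGAtgcag
Lgmn: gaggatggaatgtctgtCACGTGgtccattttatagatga
Sgsh: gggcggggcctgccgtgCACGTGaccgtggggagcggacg
Ctsl: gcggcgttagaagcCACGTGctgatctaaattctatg

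In GRCm38.p6 these stretches lie at chr8:13159083-13159160, plus strand (Lamp1, 4 sites within 61 to 15 bases of the start), chr8:3500431-3500496, plus strand (Mcoln1, 71 and 46 bases), chrX:134601177-134601249, minus strand (Gla, 228 and 195 bases), chr7:142387903-142387942, minus strand (Ctsd, 99 bases) and chr8:105566061-105566084, minus strand (Atp6v0d1, 4 bases). The others are chr2:164833744-164833772, plus strand (Ctsa, 13 bases), chr12:102439119-102439158, minus strand (Lgmn, 49 bases), chr11:119355517-119355556, minus strand (Sgsh, 29 bases) and chr13:64370734-64370770, minus strand (Ctsl, 236 bases). Distances run from the first capital of a match to the start site, and every match shown begins upstream. The 13 members also include Glb1, Naglu, Gaa and Atp6v1a. Of the 13, 12 rose and 1 fell with GW3965, with a median log2 fold change of 0.38, beside 23.6% of all tested genes called higher and 23% called lower. The other 22 with a promoter had 18 that rose and 1 that fell, with a median of 0.25, and the difference between the 13 and the 22 was not tested. With DSHN the medians were 0.25 and 0.15, and with both compounds 0.22 and 0.047. The 13 include Ctsl, the member with the deepest fall.

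Libraries held 16855029 to 23796561 counts, and no member had fewer than 183 counts in any library. Levels are CPM, counts relative to library size after scaling with TMM factors. The LXR target Abca1, a cholesterol exporter, was at 208.3 CPM ± 43.6 (SD, n = 5) in DMSO libraries, at 286.1 ± 62.4 after DSHN, at 3148 ± 328 after GW3965 and at 1243 ± 65.7 in the combination. Abcg1, its partner in export, was at 78.73 ± 15.9, 96.52 ± 11.5, 1286 ± 107 and 761.9 ± 55.8 in the same order. Nr1h3, the gene of LXR alpha, had means of 14.37, 12.04, 14.27 and 15.39 CPM. All 10 macrophage markers were expressed, with summed levels of 16900 to 18400 CPM (DMSO), 19300 to 20800 (DSHN), 17300 to 19600 (GW3965) and 17300 to 19100 (combination). Lyz2 led this sum at 10200 CPM with DMSO. Single markers moved both ways, such as Cd14 (239 CPM with DMSO, 146 with GW3965) and Mertk (116 and 305). Of 6 fibroblast markers 4 could be tested, and their sum ran from 2230 to 2820, 2380 to 3030, 2490 to 3270 and 1870 to 2280 CPM, nearly all of it collagen (Col1a1 at 1330 CPM with DMSO), while Dcn and Lum were at or below 0.392 CPM on average in every group. Pdgfra had group means of 4.13 to 5.56 CPM. Osteoclast markers (5 of 8 tested, Calcr at 0) summed to 141 to 158, 144 to 161, 117 to 137 and 112 to 117 CPM. Markers of neutrophils, dendritic cells, mast cells, T and NK cells, B cells and erythroid cells summed to at most 8.1 CPM in any library, with Fcer1a, Gzma, Pax5 and all 4 haemoglobin genes at 0. Among them Cd79b, a B cell marker, had group means of 5.28 to 6.96 CPM, and Mcpt8, of mast cells and basophils, 1.81 to 3.29. What part cells of other types had in the results was not tested. In such bulk samples, fewer cells of a type and less RNA per cell cannot be told apart.

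2 features of the libraries touch the results. First, the 5 combination libraries differed from the rest in how counts depended on exon length: the slope of log2 CPM (centred per gene) on log2 exon length was −0.124 to −0.0943 in them and 0.00566 to 0.063 in the other 15. Members run from 1247 to 11154 bases (median 3561, beside 3758 for all tested genes), so values for the combination are also given after a length correction, in which a smooth curve on exon length was taken out of each library. Second, replicates 4 and 5 lay apart from replicates 1 to 3 for many members. With both compounds the values of replicates 4 and 5 lay below all 3 others in 31 of 41 members (75.6%, beside 16.9% of all tested genes), with GW3965 in 29 (70.7%, beside 18.7%) and with DMSO in 22 (53.7%, beside 16.4%). With DSHN they lay above the 3 others in 19 members (46.3%, beside 19.9%). The labels name no batch, and this split was noticed in the values.

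Lysosome genes were among the more abundant transcripts of these cells. Per kilobase of exon, the scale on which genes can be compared with each other, the 41 had a median of 74.7 CPM/kb with DMSO, beside 6.05 for all tested genes. The top 10% of tested genes held 29 of the 41, and only Tfeb, the transcription factor, lay below the median of all tested genes. Aspartic protease gene Ctsd led at 3835 CPM/kb ± 83 (SD, n = 5), followed by the cysteine protease Ctsb at 1817 ± 54.6, the saposin precursor Psap at 1710 ± 78 and the cysteine protease Ctss at 1382 ± 46.9. The lowest were Tfeb at 3.53 ± 0.0995, the iduronidase Idua at 7.52 ± 0.702 and the osteoclast-type protease Ctsk at 7.64 ± 0.499. In this order 18 of the 40 neighbouring pairs, such as Ctsb and Psap, had overlapping library values, and the other 22, such as Ctsd and Ctsb, did not.

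**Figure D1:**
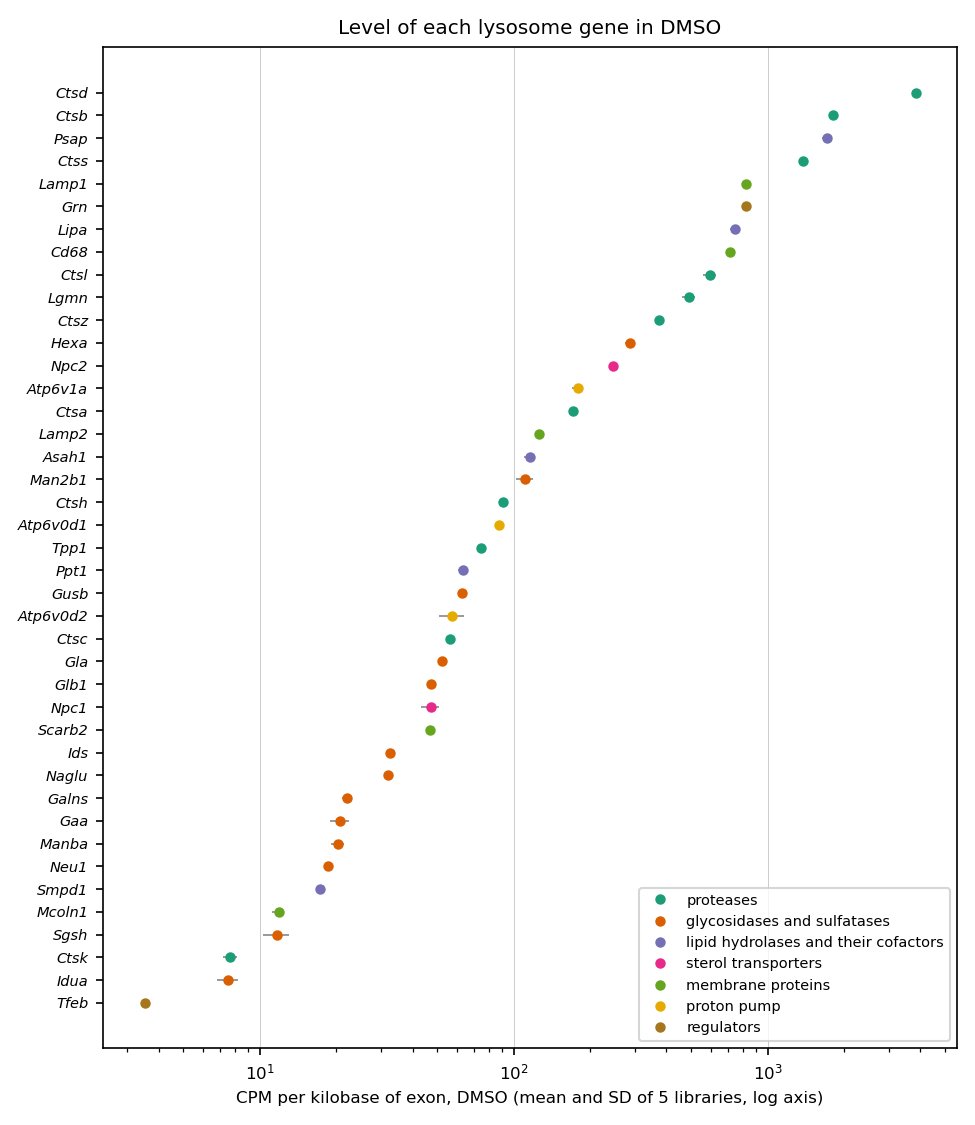
Level of each of the 41 lysosome genes in DMSO as CPM per kilobase of exon on a log axis, with points for the mean of 5 libraries, lines for the SD and colours for the role. The levels span from 3.53 (Tfeb) to 3835 CPM/kb (Ctsd), with the proteases Ctsd, Ctsb and Ctss and the saposin precursor Psap at the top.

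Together the 41 genes took 4.212% ± 0.0961 (SD, n = 5) of all counts in DMSO libraries, and 4.884% ± 0.106 after DSHN, 5.346% ± 0.265 after GW3965 and 5.101% ± 0.201 in the combination. The library shares were 4.23, 4.347, 4.243, 4.127 and 4.111% with DMSO, 4.761, 4.794, 4.925, 5.023 and 4.915% with DSHN, 5.711, 5.448, 5.352, 4.995 and 5.224% with GW3965, and 5.3, 5.295, 5.123, 4.892 and 4.898% with both. Every treated library lay above every DMSO library, and the 3 treated groups overlapped with each other.

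Most members rose with either compound alone. A gene was called where edgeR's quasi-likelihood test gave a Benjamini-Hochberg adjusted p under 0.05 over the 13307 genes, and every change is a log2 fold change with its standard error (SE). With GW3965, 35 of 41 rose and 2 fell (Ctsl and Ctsk), beside 23.6% of all tested genes called higher and 23% called lower, and the median change was 0.33 beside 0.008 for all genes. With DSHN, 31 rose and 2 fell (Ctsl and Ctsc), beside 14.1% and 14.8% of all genes, with a median of 0.19 beside 0.0019. With both compounds, 21 rose and 8 fell, beside 31.9% and 32.9% of all genes, with a median of 0.19 beside 0.01. All 3 comparisons share the DMSO libraries. Scaled by total counts alone, 30 members rose and 3 fell with GW3965, while the calls over all genes moved to 2268 higher and 3999 lower from 3134 and 3058.

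**Figure D2:**
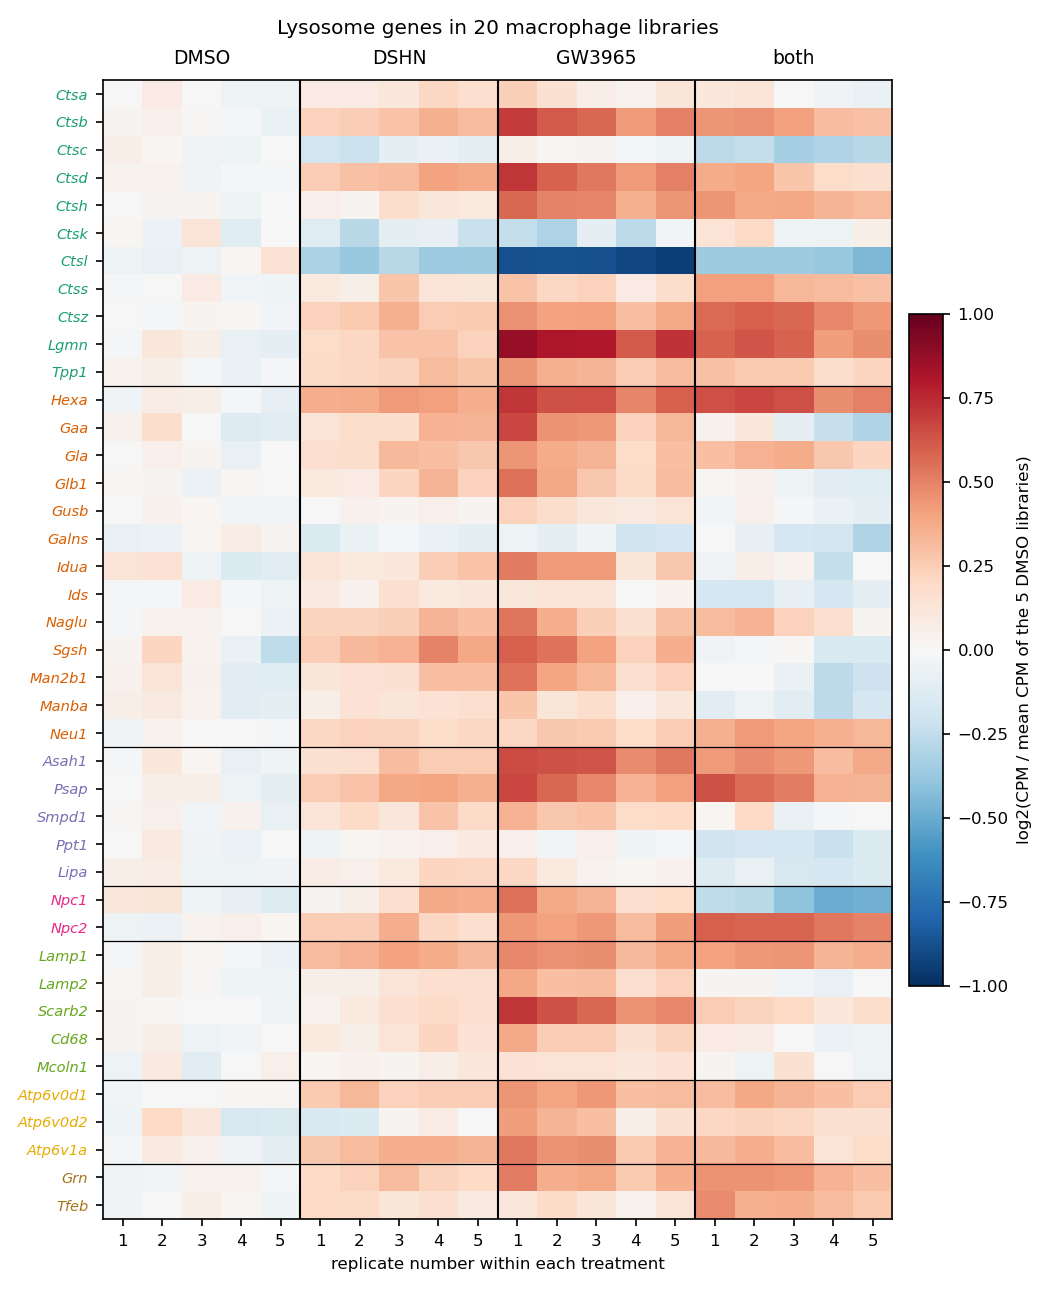
Each row is a lysosome gene and each column a library, with replicates 1 to 5 of each treatment from left to right and rows blocked by role from proteases to regulators (label colours repeat the blocks). Colour gives log2 of CPM over the mean of the 5 DMSO libraries, red for higher and blue for lower: most rows are red with DSHN and GW3965, Ctsl is blue in all treated libraries, and Npc1 is red with GW3965 and blue with both compounds.

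How far the count for DSHN rests on single libraries was examined by leaving each out. It was 21 without DSHN replicate 4, 23 without DSHN replicate 5 or DMSO replicate 5, 24 without DMSO replicate 4, 26 without DSHN replicate 3 and up to 33 otherwise. Higher calls over all genes were 1679, 1774, 1493, 1596 and 1546 in those named fits, in that order, beside 1881 with every library. Of the 31 members called higher, 20 stood whichever library was left out, and the like share of all called genes was not taken. The 11 lost at least once were Ctss (adjusted p = 0.0632 without DSHN replicate 3), Cd68 (0.0577 without DSHN replicate 4), Lipa (up to 0.0595, without DSHN replicate 4 or 5), Ctsa (up to 0.0669, without DMSO replicate 4 or 5 or DSHN replicate 4), and Gaa, Man2b1 and Lamp2 (up to 0.0649, 0.0625 and 0.0759, without replicate 4 or 5 of DMSO or DSHN). Scarb2 was lost without DMSO replicate 5 or DSHN replicate 3, 4 or 5 (up to 0.072), and Npc1 without replicate 3, 4 or 5 of either group or GW3965 replicate 3 (up to 0.138). Ids and Manba were lost without any of 7 and 10 libraries (up to 0.111 and 0.137). Replicates 1 to 3 and replicates 4 and 5 were also fitted alone, a split chosen after these members' values were seen. The difference between these sets for DSHN in part follows from that choice and is no test of robustness. With replicates 1 to 3 of every treatment alone, DSHN gave 18 higher and 3 lower with a median of 0.13. Over all 13370 genes tested there, 1552 were higher and 1627 lower. With replicates 4 and 5 alone DSHN gave 33 and 2 with a median of 0.25, beside 2032 and 2270 of 13299 genes. The GW3965 counts moved less, with 33 and 2 in the former (median 0.36) and 32 and 2 in the latter (median 0.27). Over all genes GW3965 gave 2689 and 2741 in the former and 2259 and 2545 in the latter.

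Proteases digest the protein cargo of the lysosome. Of 11, 7 rose and 2 fell with DSHN (beside 14.1% and 14.8% of all genes), 8 rose and 2 fell with GW3965 (beside 23.6% and 23%), and 7 rose and 2 fell with both (beside 31.9% and 32.9%). Ctsl, a cysteine protease (GeneID 13039, chromosome 13, 64509704 to 64518586, minus strand, 9 merged exons in the files' build GRCm39), went against the rest: it read 2037, 2014, 2044, 2147 and 2334 with DMSO, 1702, 1626, 1749, 1640 and 1657 with DSHN, 1152, 1157, 1149, 1123 and 1104 with GW3965 and 1653, 1651, 1652, 1630 and 1549 with both CPM. Every treated library lay below every DMSO library, every GW3965 library lay below all others, and DSHN and combination libraries overlapped. The change was −0.34 (SE 0.036, adjusted p = 9.37e-08) with DSHN, −0.90 (SE 0.036, adjusted p = 8.5e-17) with GW3965 (a fall of 46.2%) and −0.38 (SE 0.036, adjusted p = 8.73e-10) with both. Against GW3965 the combination was higher by 0.52 (SE 0.036, adjusted p = 1.41e-11), while against DSHN it differed by −0.042 (SE 0.036, adjusted p = 0.335), which did not pass. The interaction, the DSHN effect in the presence of GW3965 minus that in its absence, was 0.85 (SE 0.051, adjusted p = 5.72e-12), and with the length correction 0.86.

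The other broad-acting proteases rose. Lgmn, the asparaginyl endopeptidase that cuts cathepsins into their mature chains, read 974.7, 1059, 1020, 932.5 and 920.6 with DMSO, 1116, 1135, 1194, 1195 and 1151 with DSHN, 1795, 1722, 1708, 1501 and 1621 with GW3965 and 1477, 1521, 1480, 1308 and 1355 with both CPM. All treated libraries lay above all DMSO libraries, the GW3965 values were highest, and only GW3965 replicate 4 reached into the range of the combination. Its change was 0.24 (SE 0.048, adjusted p = 0.000395) with DSHN, 0.77 (SE 0.048, adjusted p = 8.37e-13) with GW3965 (the largest rise among members) and 0.54 (SE 0.048, adjusted p = 2.04e-10) with both, of which 0.38 was left after the length correction. Ctsd, the main aspartic protease, read 7527, 7520, 7190, 7253 and 7272 with DMSO, 8787, 9019, 9131, 9730 and 9548 with DSHN, 12070, 11080, 10600, 9851 and 10410 with GW3965 and 9503, 9666, 8893, 8364 and 8225 with both CPM. DMSO libraries lay below all others, GW3965 libraries above all others, and DSHN and combination libraries overlapped. It changed by 0.33 (SE 0.048, adjusted p = 9.11e-06) with DSHN and 0.56 (SE 0.048, adjusted p = 5.23e-10) with GW3965. With both the change was 0.28 (SE 0.048, adjusted p = 1.3e-05), and 0.11, adjusted p = 0.0885 after the length correction, so that call was lost. Its interaction of −0.60 (SE 0.068, adjusted p = 8.75e-08) was among the 4 with the smallest adjusted p.

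Ctsb, the most abundant cysteine protease, had means of 8617 ± 259, 10510 ± 384, 12760 ± 913 and 11240 ± 567 CPM (SD, n = 5) with DMSO, DSHN, GW3965 and both. It rose by 0.29, 0.57 and 0.38 in the 3 comparisons with DMSO. Part of its exon sequence (16.32%) overlaps Fdft1 on the opposite strand, and the counting used no strand option. Ctsz, an exopeptidase, read 539.5, 531.3, 547.6, 540.6 and 526.2 with DMSO, 631.2, 643.1, 686.5, 640.9 and 642.4 with DSHN, 737.8, 710.6, 712.6, 662.1 and 699.7 with GW3965 and 794.6, 811.3, 798.4, 749.9 and 727.2 with both CPM. Its DMSO values lay below the others and its combination values above those of DSHN. It rose by 0.27 (SE 0.034, adjusted p = 1.19e-06), 0.39 (SE 0.034, adjusted p = 6.17e-10) and 0.53 (SE 0.034, adjusted p = 7.66e-13), and the last was 0.28 after the length correction, under which its place above DSHN was lost (0.027, adjusted p = 0.581) and its place above GW3965 turned (−0.091, adjusted p = 0.0463).

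Ctsh, an aminopeptidase, read 151.5, 154.5, 155, 147.1 and 151.1 with DMSO, 157.1, 155.1, 171.2, 164.6 and 162.6 with DSHN, 226.3, 214.6, 213.4, 193.9 and 206.4 with GW3965 and 205.7, 197.5, 198.6, 192.3 and 189.4 with both CPM. DSHN overlapped with no DMSO library but changed by 0.095 (SE 0.037, adjusted p = 0.0587), short of the threshold except without DSHN replicate 2 or GW3965 replicate 4 (adjusted p down to 0.0473), while GW3965 raised it by 0.47 (SE 0.037, adjusted p = 8.02e-11). The combination was above DSHN by 0.28 (SE 0.037, adjusted p = 4.47e-07), a call lost after the length correction (0.084, adjusted p = 0.112). Ctsc, which activates the serine proteases of immune granules, read 655.1, 636, 613.3, 605.3 and 625.3 with DMSO, 551.4, 541, 585.7, 598.1 and 586.7 with DSHN, 651.4, 634.1, 637.9, 620.3 and 604.9 with GW3965 and 523.2, 531.2, 497.7, 510.1 and 516.6 with both CPM. It fell with DSHN, by a log2 value of −0.13 (SE 0.033, adjusted p = 0.00328), in non-overlapping libraries, changed by 0.0062 (SE 0.033, adjusted p = 0.898) with GW3965, and with both by −0.28 (SE 0.033, adjusted p = 3.04e-08). At 11154 bases Ctsc has the longest exon sequence of the 41, and the last value was −0.019, adjusted p = 0.588 after the length correction. Ctsk, known for bone collagen breakdown in osteoclasts, read 12.29, 11.64, 13.26, 11.15 and 12.15 with DMSO, 11.11, 9.993, 11.29, 11.46 and 10.37 with DSHN, 10.27, 9.774, 11.36, 10.08 and 11.88 with GW3965 and 13.31, 13.9, 11.7, 11.69 and 12.6 with both CPM and overlapped between all groups except DSHN and the combination. Its call with GW3965, −0.18 (SE 0.07, adjusted p = 0.034), was lost without any of 5 libraries (DMSO replicate 1 or 3, GW3965 replicate 1, 2 or 4, adjusted p up to 0.0919). Against GW3965 the combination was higher by 0.24 (SE 0.07, adjusted p = 0.00427), with 0.037, adjusted p = 0.694 after the length correction. With both against DMSO it changed by 0.062 (SE 0.069, adjusted p = 0.438), and after the correction it was lower (−0.17, adjusted p = 0.0415).

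3 further proteases rose with each compound. Ctss, an invariant-chain protease of antigen presentation, changed by 0.14, 0.20 and 0.35 with DSHN, GW3965 and both, the first and last being 0.11, adjusted p = 0.051 and 0.10, adjusted p = 0.0561 after the length correction, neither called. Tpp1, a tripeptidyl peptidase, changed by 0.24, 0.34 and 0.24, all called. Ctsa, the carboxypeptidase that shields neuraminidase, rose by 0.13 and 0.12 with the compounds alone and changed by 0.029 with both, which did not pass. Its exons share 22.31% of their length with Neurl2 and Pltp, and its GW3965 call was lost without DMSO replicate 4 or 5 or GW3965 replicate 1 (adjusted p up to 0.0872).

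**Figure D3:**
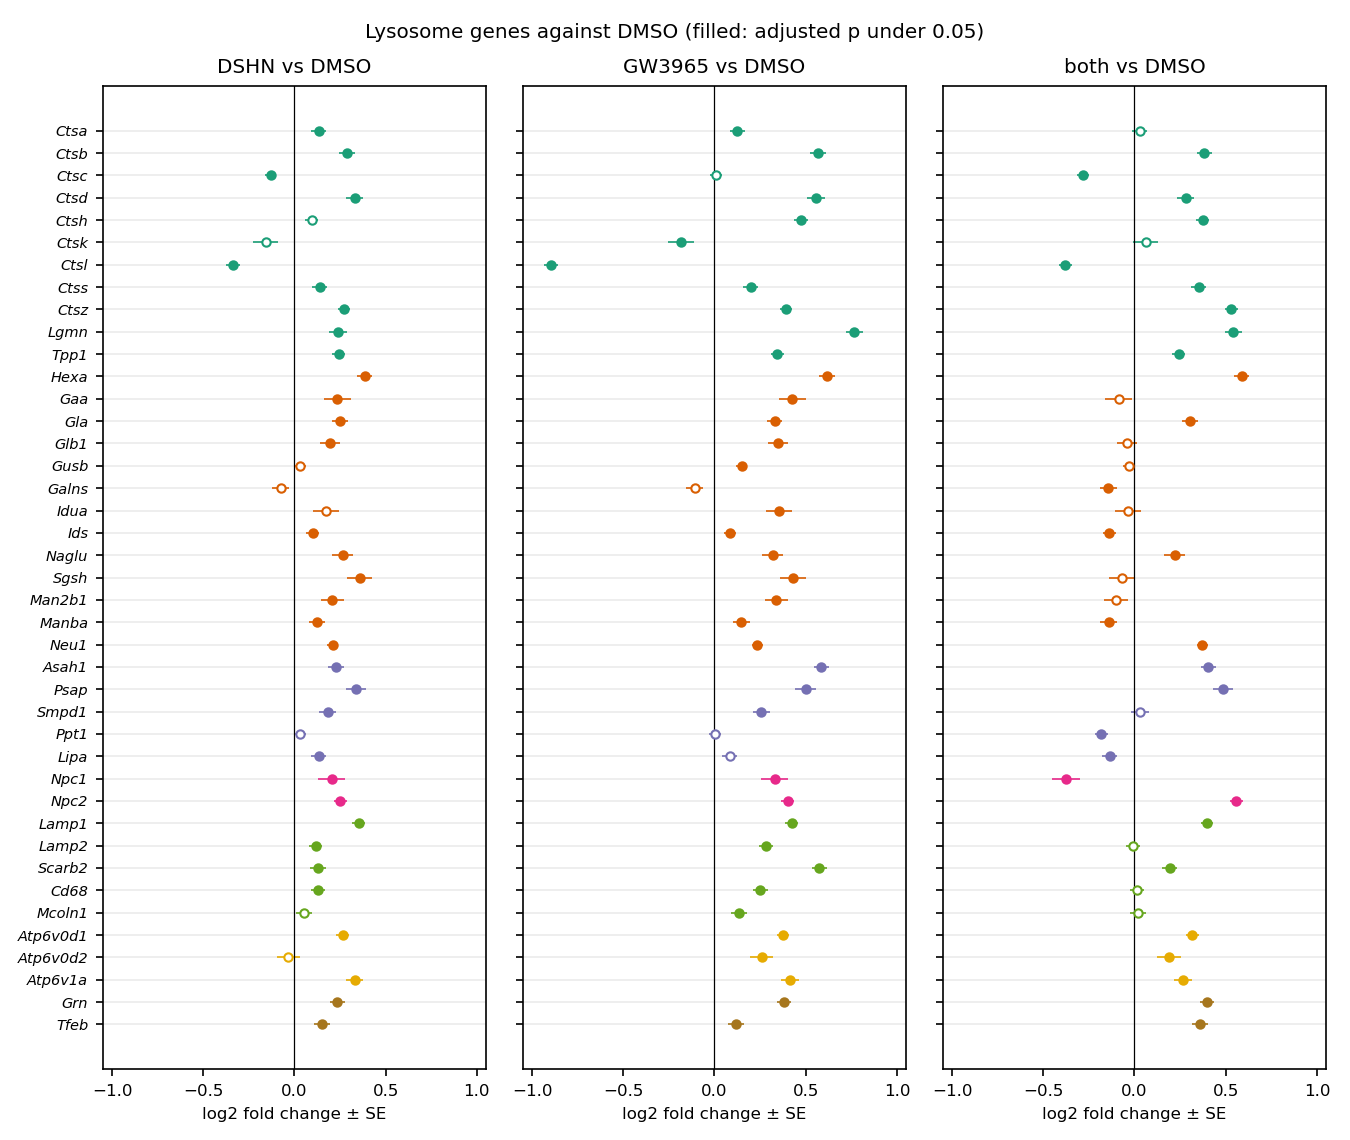
Log2 fold change (x) with SE of each of the 41 lysosome genes (y, blocked and coloured by role) against the 5 DMSO libraries for DSHN, GW3965 and both compounds, with filled points for adjusted p under 0.05. Points lie right of 0 for 31 called genes with DSHN and 35 with GW3965, and spread to both sides with both compounds, where 21 were called higher and 8 lower.

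Glycosidases and sulfatases take sugars and sulfates off glycoproteins, glycolipids and glycosaminoglycans. Of 13, 10 rose with DSHN (beside 14.1% of all genes) and 12 with GW3965 (beside 23.6%), and none fell with either. With both compounds 4 rose and 3 fell, shares no larger than the 31.9% and 32.9% of all genes, and the median was −0.042. Hexa, the alpha chain of beta-hexosaminidase that degrades GM2 ganglioside, read 652.8, 705.3, 696.7, 660.1 and 633.7 with DMSO, 859.8, 865.1, 899, 888 and 860.5 with DSHN, 1099, 1042, 1048, 938.3 and 1013 with GW3965 and 1045, 1064, 1046, 923.9 and 951.9 with both CPM. All treated libraries lay above all DMSO libraries, DSHN lay below the other treated groups, and GW3965 and combination values overlapped. It rose by 0.38 (SE 0.043, adjusted p = 1.61e-07), 0.62 (SE 0.043, adjusted p = 6.51e-12) and 0.59 (SE 0.043, adjusted p = 6.16e-12) with DSHN, GW3965 and both, and by 0.48 in the last after the length correction. Its exons overlap Tmem202 over 11.1% of their length.

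Sgsh, Gaa and Man2b1 rose with each compound alone and returned near DMSO with both. Sgsh, the sulfamidase of heparan sulfate breakdown, read 51.54, 58.61, 51.9, 48.32 and 42.33 with DMSO, 59.78, 63.11, 64.29, 71.47 and 65.96 with DSHN, 76.55, 73.6, 66.94, 59.37 and 65.04 with GW3965 and 49.2, 50.12, 51.02, 45.39 and 45.4 with both CPM. DSHN and GW3965 libraries all lay above DMSO and combination libraries, which overlapped. It rose by 0.36 (SE 0.069, adjusted p = 0.000304) with DSHN and 0.43 (SE 0.069, adjusted p = 1.2e-05) with GW3965, while with both it changed by −0.069 (SE 0.071, adjusted p = 0.403). Its interaction was −0.86 (SE 0.10, adjusted p = 1.22e-07), or −0.80 after the length correction. Card14 and Slc26a11 overlap 22.39% of its exon length.

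Gaa, the acid alpha-glucosidase that degrades glycogen, read 75.98, 83.01, 73.3, 67.5 and 68.53 with DMSO, 81.09, 83.25, 83.15, 93.56 and 92.98 with DSHN, 116.8, 100.4, 99.73, 86.46 and 92.49 with GW3965 and 75.76, 79.23, 68.99, 62.86 and 59.84 with both CPM. GW3965 values lay above every DMSO value, DSHN overlapped with DMSO through DMSO replicate 2, and the combination overlapped with DMSO but with no GW3965 library. It rose by 0.23 (SE 0.075, adjusted p = 0.0197) and 0.43 (SE 0.075, adjusted p = 3.73e-05) with the compounds alone, and with both changed by −0.087 (SE 0.076, adjusted p = 0.323). Man2b1, a lysosomal alpha-mannosidase, read 557.6, 589.1, 555.2, 501.6 and 496.7 with DMSO, 586.1, 596.8, 601.3, 666.9 and 665.9 with DSHN, 788.8, 708.6, 680.4, 603.2 and 634.7 with GW3965 and 538.9, 542.6, 516.9, 450.2 and 468.3 with both CPM. Its GW3965 libraries lay above all DMSO and all combination libraries, and its combination libraries lay below all DSHN libraries and overlapped with DMSO. It rose by 0.21 (SE 0.064, adjusted p = 0.0155) and 0.34 (SE 0.064, adjusted p = 8.79e-05), and with both changed by −0.10 (SE 0.064, adjusted p = 0.166). Against GW3965 the combination was lower by −0.51 for Gaa, −0.50 for Sgsh and −0.44 for Man2b1, and against DSHN by −0.32, −0.43 and −0.31. All 6 of these calls stood after the length correction, Man2b1 against DSHN at −0.20.

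Glb1 rose with each compound and Idua with GW3965, and neither was called with both. Glb1, the lysosomal beta-galactosidase, had means of 117.2 ± 2.75, 134.2 ± 9.93, 149.2 ± 14.6 and 113.8 ± 5.85 CPM (SD, n = 5) with DMSO, DSHN, GW3965 and both. Idua, which degrades dermatan and heparan sulfate, had 35.56 ± 3.32, 40.16 ± 2.44, 45.57 ± 4.85 and 34.76 ± 2.8 CPM in the same order. The changes were 0.19, 0.35 and −0.042 for Glb1, the last not called. Idua rose with GW3965 by 0.35 (SE 0.07, adjusted p = 0.000159), and changed by 0.17 (SE 0.07, adjusted p = 0.0682) with DSHN and −0.035 with both, neither called. The DSHN value of Idua passed without DMSO replicate 1 or 2 or GW3965 replicate 4 (adjusted p down to 0.0345) and after the length correction (0.19, adjusted p = 0.0358). Idua overlaps Dgkq and Slc26a1 over 17.27% of its length. Gla, the alpha-galactosidase A, Naglu, a heparan sulfate glucosaminidase, and Neu1, the lysosomal sialidase, rose with all 3 treatments, by 0.30, 0.22 and 0.37 with both, Naglu being at 0.14, adjusted p = 0.0485 after the length correction. Manba, the beta-mannosidase, and Ids, the iduronate sulfatase, rose with each compound (by 0.12 and 0.10 with DSHN, 0.15 and 0.086 with GW3965) and fell with both (−0.14 and −0.14), although neither fall stood after the length correction (−0.082, adjusted p = 0.12 and 0.033, adjusted p = 0.442). Their GW3965 calls were lost without GW3965 replicate 1 for Manba (adjusted p = 0.0523) and without any of 17 libraries for Ids (up to 0.167). Gusb, the beta-glucuronidase, rose with GW3965 (0.15 (SE 0.031, adjusted p = 0.000273)) and changed by 0.029 with DSHN. With both it changed by −0.029 (SE 0.031, adjusted p = 0.419), and after the length correction it was higher (0.23, adjusted p = 9.32e-07). Galns, a keratan sulfate sulfatase, was not called with either compound (−0.076 and −0.11) and fell with both (−0.14 (SE 0.047, adjusted p = 0.00967)). Its GW3965 value passed without any of 8 libraries (adjusted p down to 0.0316). Gusb overlaps Vkorc1l1 over 44.39% of its exon length.

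Lipid hydrolases and their cofactors rose in 4 of 5 with DSHN and 3 of 5 with GW3965, beside the 14.1% and 23.6% of all genes, and with both 2 rose and 2 fell, beside 31.9% and 32.9%. Psap, which is cut into the saposins that present sphingolipids to hydrolases, read 4749, 4972, 4928, 4589 and 4466 with DMSO, 5643, 5791, 6212, 6246 and 6078 with DSHN, 7521, 7071, 6604, 6022 and 6304 with GW3965 and 7372, 6982, 6776, 6037 and 6013 with both CPM. Every treated library lay above every DMSO library, and the treated groups overlapped. It rose by 0.34 (SE 0.057, adjusted p = 5.33e-05), 0.50 (SE 0.057, adjusted p = 5.51e-08) and 0.49 (SE 0.057, adjusted p = 3.19e-08) with DSHN, GW3965 and both. Asah1, the acid ceramidase, read 472.6, 512.8, 481.5, 451.7 and 462.7 with DMSO, 530.7, 530.8, 591, 567.2 and 569 with DSHN, 747.4, 742.3, 735.7, 661.7 and 686.7 with GW3965 and 639.4, 661.9, 644.3, 588.6 and 618 with both CPM. DMSO lay lowest and GW3965 highest, apart from GW3965 replicate 4, which lay just below the highest combination library. DSHN replicate 3 lay above combination replicate 4, so DSHN and the combination overlapped too. It rose by 0.23 (SE 0.042, adjusted p = 0.000171), 0.59 (SE 0.042, adjusted p = 1.38e-11) and 0.40 (SE 0.042, adjusted p = 4.13e-09). Frg1 covers 16.2% of its exon length on the same strand.

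Smpd1, the acid sphingomyelinase, rose by 0.18 with DSHN and 0.26 with GW3965, and with both it changed by 0.032 (SE 0.048, adjusted p = 0.577). Lipa, the acid lipase that frees cholesterol from cholesteryl esters, had means of 2212 ± 93.4, 2425 ± 131, 2343 ± 126 and 2013 ± 54.4 CPM with DMSO, DSHN, GW3965 and both. It rose by 0.13 (SE 0.04, adjusted p = 0.0137) with DSHN, changed by 0.083 (SE 0.04, adjusted p = 0.0927) with GW3965, and fell, with a log2 change of −0.14 (SE 0.04, adjusted p = 0.00449) with both. Ppt1, the palmitoyl-protein thioesterase, read 165.9, 176.7, 161.8, 159.2 and 165.3 with DMSO, 160.6, 167.8, 169.7, 171.6 and 176.3 with DSHN, 171.7, 162.7, 171.8, 161.2 and 164 with GW3965 and 144.1, 147.8, 146.9, 142.3 and 150 with both CPM. Combination libraries lay below all others, which overlapped. It fell, with a log2 change of −0.18 (SE 0.034, adjusted p = 3.65e-05) with both and was not called with either alone (0.029 and 0.0038), and after the length correction the fall was −0.25.

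The 2 sterol transporters, which hand cholesterol from the lysosome's lumen to its membrane, moved in opposite directions with the combination. Npc1, the membrane-embedded partner (GeneID 18145, chromosome 18, 12322751 to 12369851, minus strand, 25 merged exons), read 287, 288.6, 256.4, 250.2 and 241.8 with DMSO, 270.3, 275.2, 295.9, 344.8 and 339.8 with DSHN, 387, 345.2, 335.2, 297.3 and 300.1 with GW3965 and 222.5, 219.3, 200.5, 188 and 190.2 with both CPM. GW3965 libraries all lay above the DMSO libraries, DSHN and DMSO overlapped, and combination libraries lay below all others. It rose by 0.20 (SE 0.074, adjusted p = 0.039) with DSHN, with replicates 4 and 5 above the other 3, and by 0.33 (SE 0.074, adjusted p = 0.000612) with GW3965, and fell, with a log2 change of −0.38 (SE 0.075, adjusted p = 8.86e-05) with both. The fall against GW3965 was −0.71 (SE 0.075, adjusted p = 1.21e-08), against DSHN −0.58 (SE 0.075, adjusted p = 2.65e-07), and the interaction −0.91 (SE 0.10, adjusted p = 1.3e-07). After the length correction these were −0.56, −0.43 and −0.78, and the change against DMSO was −0.21, adjusted p = 0.0104.

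Npc2, the soluble partner in the lumen (GeneID 67963, chromosome 12, 84801333 to 84819886, minus strand, 4 merged exons), read 775.3, 770.2, 821.2, 829.2 and 813.2 with DMSO, 953.5, 952.1, 1033, 926.2 and 902.8 with DSHN, 1084, 1058, 1083, 999.7 and 1069 with GW3965 and 1214, 1200, 1203, 1154 and 1130 with both CPM. The 4 treatments did not overlap except for DSHN replicate 3, which fell among the GW3965 libraries, and the order rose from DMSO through DSHN and GW3965 to the combination. It rose by 0.25 (SE 0.036, adjusted p = 7.12e-06), 0.40 (SE 0.036, adjusted p = 8.95e-10) and 0.56 (SE 0.036, adjusted p = 7.02e-13), and the combination lay above GW3965 by 0.16 (SE 0.036, adjusted p = 0.000519) and above DSHN by 0.31 (SE 0.036, adjusted p = 5.1e-08). Its value with both was 0.56 after the length correction, and its interaction was −0.093 (SE 0.051, adjusted p = 0.128), which did not pass.

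**Figure D4:**
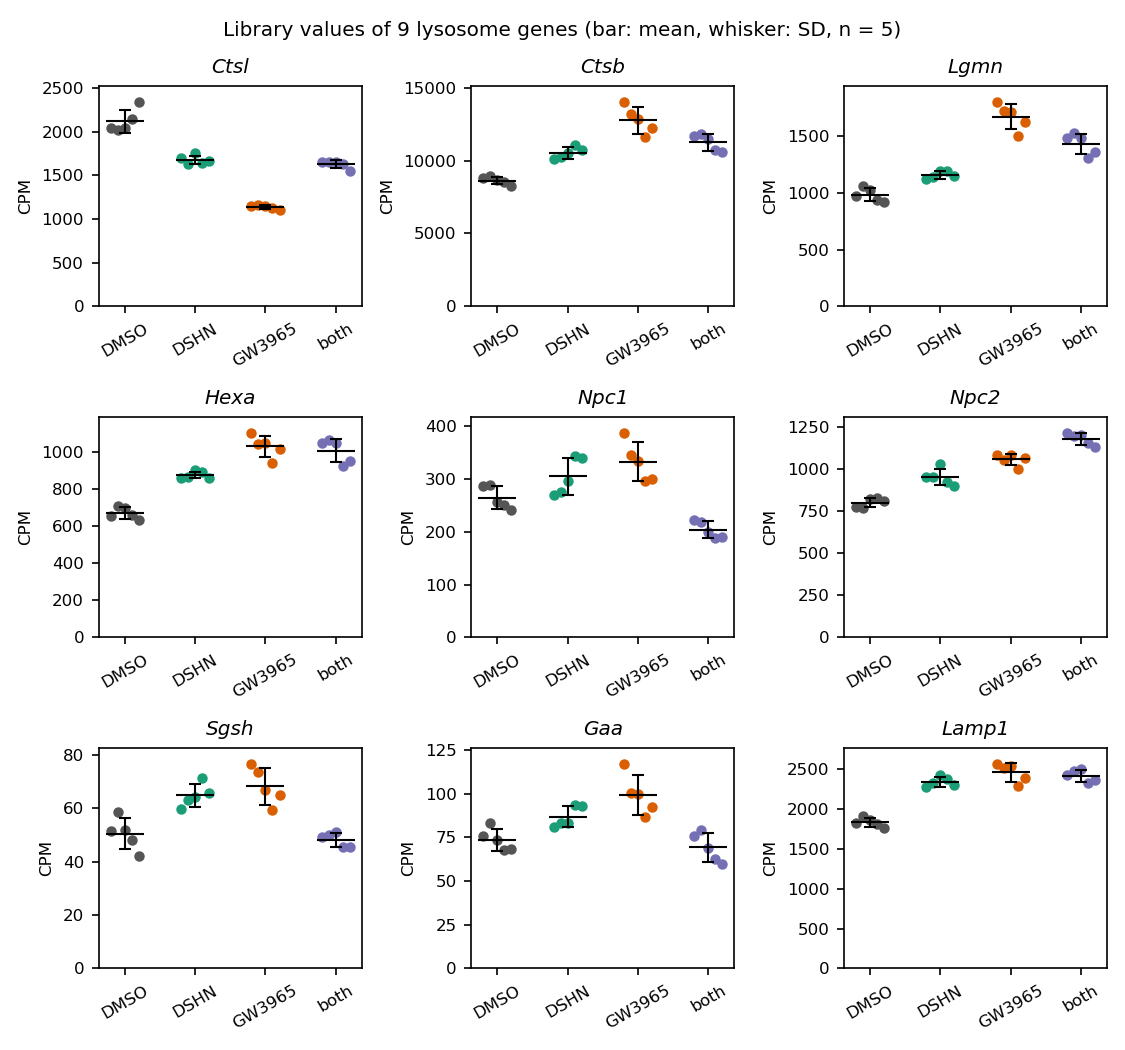
CPM (y, from 0) of 9 lysosome genes in the 20 libraries by treatment (x), with points for replicates 1 to 5 from left to right, a bar for the mean and whiskers for the SD. Ctsl is lowest with GW3965, Sgsh, Gaa and Npc1 have higher means with either compound than with DMSO, and means below DMSO with both, and Npc2 is highest with both.

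Membrane proteins rose in 4 of 5 with DSHN, 5 of 5 with GW3965 and 2 of 5 with both, beside 14.1%, 23.6% and 31.9% of all genes. Lamp1, a major glycoprotein of the lysosomal membrane, read 1823, 1917, 1865, 1812 and 1767 with DMSO, 2284, 2332, 2431, 2376 and 2300 with DSHN, 2565, 2523, 2539, 2298 and 2391 with GW3965 and 2434, 2478, 2501, 2326 and 2364 with both CPM. All treated libraries lay above all DMSO libraries, and the 3 treated groups overlapped. It rose by 0.35 (SE 0.034, adjusted p = 1.83e-08), 0.42 (SE 0.034, adjusted p = 1.37e-10) and 0.40 (SE 0.034, adjusted p = 1.28e-10). Scarb2, also called LIMP2, which carries glucocerebrosidase to the lysosome, read 225.6, 224.8, 220.7, 220.5 and 216.6 with DMSO, 226.8, 236.5, 247.7, 253.1 and 248.3 with DSHN, 363, 344.9, 329.8, 303.2 and 309.9 with GW3965 and 264, 258.6, 254.7, 238 and 250.6 with both CPM. All 3 treated groups lay above DMSO, DSHN and the combination overlapped, and GW3965 lay above all. It rose by 0.13 (SE 0.042, adjusted p = 0.0216) with DSHN, 0.57 (SE 0.042, adjusted p = 2.04e-11) with GW3965 and 0.19 (SE 0.042, adjusted p = 0.000274) with both, the last being 0.31 after the length correction. Lamp2, which also serves chaperone-mediated autophagy, and Cd68, a glycoprotein of macrophage endosomes, rose with DSHN (0.12 and 0.13) and GW3965 (0.28 and 0.25). With both they changed by −0.0093 and 0.012, neither called. After the length correction Lamp2 was higher with both (0.20, adjusted p = 7.17e-06) and Cd68, the shortest of the 41 at 1247 bases, lower (−0.28, adjusted p = 3.29e-05), and the DSHN call of Cd68 was lost (0.10, adjusted p = 0.138). Mcoln1, the lysosomal calcium channel, rose with GW3965 (0.14 (SE 0.044, adjusted p = 0.0128), lost without DMSO replicate 3 at adjusted p = 0.0639) and changed by 0.053 with DSHN and 0.019 with both.

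Subunits of the proton pump rose in 2 of 3 with DSHN and in 3 of 3 with GW3965 and with both, beside the same 3 shares of all genes. Atp6v1a, the catalytic subunit, rose by 0.33 (SE 0.047, adjusted p = 7.12e-06), 0.41 (SE 0.047, adjusted p = 6.41e-08) and 0.27 (SE 0.047, adjusted p = 2.13e-05), and Atp6v0d1, of the membrane sector, by 0.26, 0.38 and 0.32. After the length correction the last value of Atp6v0d1 was 0.10, adjusted p = 0.0149, and it turned to lower against DSHN (0.054 before, −0.14, adjusted p = 0.00118 after). Atp6v0d2, the isoform of osteoclasts and some macrophages, rose with GW3965 (0.26 (SE 0.064, adjusted p = 0.00166)) and with both (0.19 (SE 0.064, adjusted p = 0.0124), lost without DMSO replicate 5 at adjusted p = 0.0544). With DSHN it changed by −0.034 (SE 0.064, adjusted p = 0.739). Its DSHN values were 210.3, 212.5, 238.3, 245.8 and 233.5 CPM and overlapped with DMSO, at 226.6, 267.3, 252, 209 and 211.5. Replicates 4 and 5 alone gave 0.18 for this gene.

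Both regulators rose with all 3 treatments. Grn, the progranulin gene, whose product supports lysosomal enzymes, had means of 1766 ± 39.6, 2079 ± 68.1, 2299 ± 144 and 2325 ± 107 CPM with DMSO, DSHN, GW3965 and both, and rose by 0.24, 0.38 and 0.40, the last being 0.26 after the length correction. Tfeb, the transcription factor of the lysosomal programme, read 26.06, 26.54, 27.75, 27.05 and 25.93 with DMSO, 30.55, 30.45, 29.03, 29.86 and 28.37 with DSHN, 28.79, 30.46, 28.99, 27.32 and 29.32 with GW3965 and 37.01, 34.06, 34.28, 33.24 and 32.05 with both CPM. DSHN and combination libraries lay above all DMSO libraries, the combination above all others, and GW3965 overlapped with DMSO through its replicate 4. It rose by 0.15 (SE 0.044, adjusted p = 0.01) with DSHN, 0.12 (SE 0.044, adjusted p = 0.0294) with GW3965 and 0.36 (SE 0.044, adjusted p = 7.85e-08) with both. The GW3965 call was lost without any of 8 libraries (DMSO replicate 1, 2, 4 or 5 or GW3965 replicate 1, 2, 3 or 5, adjusted p up to 0.115). The combination lay above GW3965 by 0.24 (SE 0.044, adjusted p = 4.26e-05) and above DSHN by 0.20. The exon length of Tfeb is 7548 bases, and after the length correction these were 0.46 and 0.42, and the value with both against DMSO 0.59.

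Set beside each compound alone, the combination lowered more members than it raised against GW3965 and was mixed against DSHN. Against GW3965, 24 of 41 were lower and 7 higher (Ctsk, Ctsl, Ctss, Ctsz, Neu1, Npc2 and Tfeb), beside 29.5% and 28.3% of all genes, with a median of −0.15 beside 0.017. Against DSHN, 15 were lower and 13 higher, beside 29.5% and 28.6% of all genes, with a median of −0.042 beside 0.01. With replicates 1 to 3 alone the count against DSHN was 8 lower and 16 higher, and with replicates 4 and 5 alone 21 and 11, while against GW3965 it was 24 and 7, and 22 and 6. Over all genes the lower and higher calls against DSHN were 3220 and 2778, then 3665 and 3715. Against GW3965 they were 3519 and 3390, then 3306 and 2957, of 13370 and 13299 genes tested. The split was chosen from these members' values, so the shift between its sets against DSHN in part follows from that choice. The length correction gave 24 lower and 5 higher against GW3965 (beside 23.5% and 23.8% of all genes) and 12 lower and 10 higher against DSHN (beside 22.9% and 23.5%). The same sign and call before and after the correction were found for 22 of the 31 members called against GW3965 and 16 of the 28 against DSHN. Of the rest, 2 members were called in the opposite direction against GW3965 (Ctsz lower, Gusb higher) and 1 against DSHN (Ctsc higher). Ctss, called higher in both comparisons, turned to −0.075, adjusted p = 0.169 and −0.015, adjusted p = 0.8, and Lamp2, called lower against DSHN, to 0.069, adjusted p = 0.0823, none of them called. Against DMSO, 21 were higher and 7 lower after the correction, beside 30.2% and 28.2% of all genes, and 24 of 29 calls stood, with a median of 0.11. What share of all called genes kept call and sign after the correction was not taken for any contrast.

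Some calls of these comparisons were lost when a library was left out. Against GW3965 these were Atp6v1a (adjusted p up to 0.053, without combination replicate 4 or GW3965 replicate 1), Tpp1 (up to 0.114, without combination replicate 4 or 5 or GW3965 replicate 1 or 2), Ctsh (up to 0.137, any of 6 libraries) and Mcoln1 (up to 0.102, any of 8). Against DSHN they were Idua (up to 0.0674, without DSHN replicate 5 or combination replicate 4), Cd68 (up to 0.0587, without replicate 4 of DSHN or the combination), Psap (up to 0.088, without replicate 1 or 2 of either) and Ctsa (up to 0.141, any of 9). The other calls of these contrasts stood in each of the 20 fits. Calls were gained for Ctsa against GW3965 (−0.10 (SE 0.042, adjusted p = 0.0508) with all libraries) without any of 4 libraries (adjusted p down to 0.028) and for Ctsb against DSHN (0.10 (SE 0.043, adjusted p = 0.0571)) without any of 11 (down to 0.0197).

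The interaction was negative for most members, meaning that adding DSHN to GW3965 did less, or lowered more, than adding it to DMSO. It passed for 35 of 41, 33 below 0 and 2 above (Ctsl and Ctsk), beside 26.5% and 23.7% of all genes called lower and higher, with a median of −0.35 beside 0.0054. All 13 glycosidases and sulfatases except Galns and Neu1 were called below 0, as were all 5 lipid genes and all 5 membrane proteins. The median of the 13 was −0.41, that of the 5 lipid genes −0.35 and that of the 5 membrane proteins −0.38. Those not called were Ctss, Galns, Neu1, Npc2, Atp6v0d2 and Tfeb. After the length correction 32 were below 0 and 3 above, beside 22.6% and 21.5% of all genes, and 32 of the 35 calls stood with their sign. Of the other 3, Ctsk kept its sign but was not called (0.22, adjusted p = 0.0778), Gusb turned to 0.036, adjusted p = 0.548, not called, and Ctsc turned to a call above 0 (0.10, adjusted p = 0.0361). Ctss and Tfeb, not called before, were called below 0 (−0.19, adjusted p = 0.0152) and above 0 (0.29, adjusted p = 0.00085). Replicates 1 to 3 alone gave 30 below and 2 above, and replicates 4 and 5 alone 32 below and 1 above. Over all genes they gave 2662 below and 2089 above of 13370, and 3240 and 3135 of 13299. The calls of Ctsz (adjusted p up to 0.0898) and Mcoln1 (up to 0.0833) were lost without any of 6 and 11 libraries. Scaled by total counts, 30 were below and 3 above, and the calls over all genes moved to 2856 lower and 4067 higher from 3527 and 3154.

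**Figure D5:**
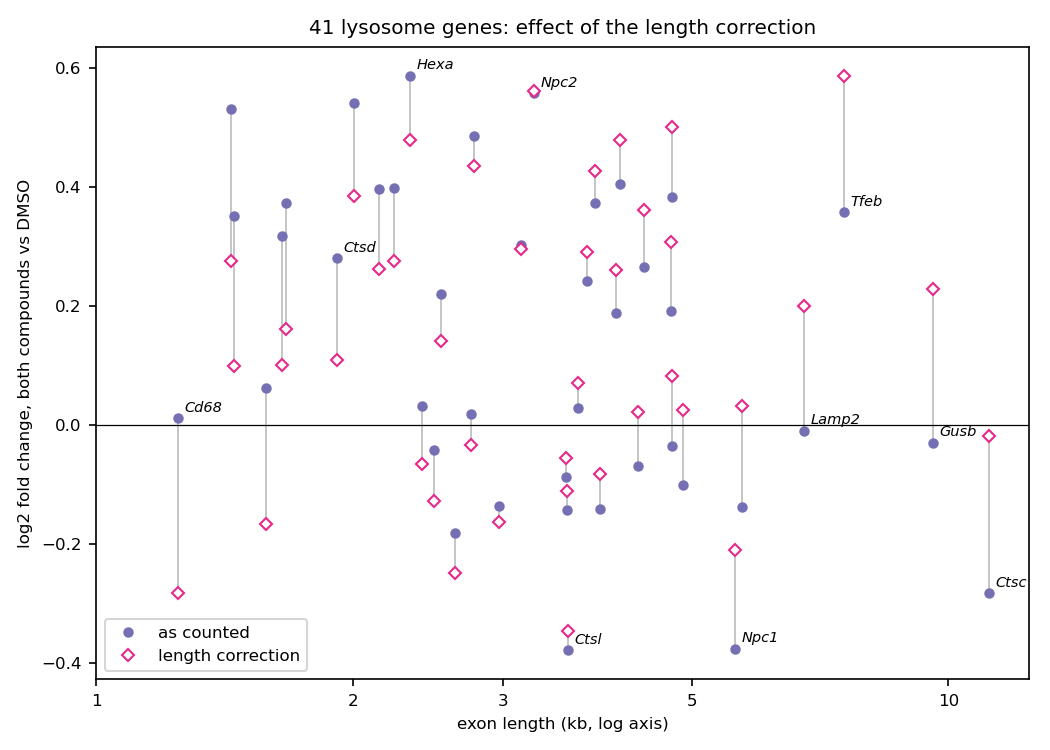
Log2 fold change of both compounds against DMSO (y) for the 41 lysosome genes by exon length in kilobases (x, log axis), as counted (filled circles) and after the length correction (open diamonds), joined by a line for each gene. The correction lowers short genes such as Cd68 (from 0.012 to −0.28) and raises long ones such as Tfeb (from 0.36 to 0.59), and leaves Npc2 and Ctsl nearly in place.

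A further 123 genes outside the 41, of which 117 could be tested, gave the surroundings. They are lysosome genes and genes linked to the lysosome by sorting, regulation, autophagy or cathepsin inhibition. Of these 117, 62 rose and 6 fell with DSHN, 82 rose and 5 fell with GW3965, and 65 rose and 25 fell with both, with medians of 0.14, 0.19 and 0.16. Of all tested genes, 14.1% rose and 14.8% fell with DSHN, 23.6% and 23% with GW3965, and 31.9% and 32.9% with both. The interaction was called below 0 for 67 and above 0 for 19, beside 26.5% and 23.7% of all genes, with a median of −0.2. These counts, and those of the single lists below, are without the length correction. Other hydrolases and related proteins rose in 23 of 26 with GW3965 (beside 23.6%), with Pla2g15, a lysosomal phospholipase, at 0.74 and Scpep1, a serine carboxypeptidase, at 0.51. Hgsnat, which acetylates heparan sulfate during its breakdown, rose by 0.28 with DSHN and 0.43 with GW3965 and had an interaction of −0.88 (adjusted p = 2.3e-11). Further pump subunits rose in 10 of 15 with DSHN, 14 with GW3965 and 12 with both (beside 14.1%, 23.6% and 31.9%), with Atp6v1g1, of the peripheral stalk, at 0.25, 0.38 and 0.81, the last being 0.49 after the length correction. Atp6v1f was at 0.61 with both and at 0.17 after it. The interactions of Atp6v0e, Atp6v1f and Atp6v0b (0.31, 0.28 and 0.31) became 0.017, −0.030 and 0.11, none called. That of Atp6v0a1 (−0.36) stayed called at −0.22.

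Other membrane proteins rose in 13 of 24 with DSHN, 16 with GW3965 and 12 with both, beside 14.1%, 23.6% and 31.9% of all genes. Litaf, a late endosomal protein, rose by 0.33, 0.54 and 0.54, while Abca2, a lysosomal lipid transporter, fell by a log2 change of −1.04 with both (−0.77 after the length correction). Slc29a3, a nucleoside transporter, rose by 0.65 with GW3965 and had an interaction of −1.02. Sorting and mannose-6-phosphate tagging genes had 5 of 12 higher and 1 lower with each compound (beside 14.1% and 14.8% of all genes with DSHN, 23.6% and 23% with GW3965). With both compounds 3 were higher and 5 lower, beside 31.9% and 32.9% of all genes. Gnptab, the transferase that makes the tag, fell by a log2 change of −0.24, −0.35 and −0.61. Igf2r, a receptor of the tag, fell by a log2 change of −0.58 with both, or −0.32 after the length correction.

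MiT/TFE factors and their control by mTORC1, the kinase complex that holds TFEB in the cytoplasm, had 8 of 18 higher and 2 lower with each compound (beside 14.1% and 14.8% of all genes with DSHN, 23.6% and 23% with GW3965), and 12 and 5 with both (beside 31.9% and 32.9%). Tfec, a relative of Tfeb, rose by 0.62 with DSHN and 0.57 with GW3965. Flcn and the GTPases Rragc and Rragd, which act in nutrient signalling at the lysosome, rose by 0.60, 0.40 and 0.68 with DSHN and by 0.80, 0.54 and 0.92 with GW3965. Mtor, the kinase itself, and Rptor fell by log2 changes of −0.98 and −0.80 with both (−0.73 and −0.56 after the length correction). Autophagy genes rose in 11 of 19 with DSHN and 13 with GW3965 with none lower (beside 14.1% and 23.6% of all genes higher), and in 8 with 4 lower with both (beside 31.9% and 32.9%). Map1lc3b, the autophagosome marker LC3B, rose by 0.40 and 0.51 with the compounds alone, and the cargo receptor Sqstm1 by 0.31 and 0.32. Of 7 cathepsin inhibitors 3 could be tested and all 3 rose with GW3965 (beside 23.6%), led by Serpinb6a at 0.63.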

How the data were processed

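Macrophage RNA was turned into 20 libraries with the stranded Kapa mRNA kit, per the labels' protocols. STAR aligned the reads to GRCm39, per the submitters' processing notes. The deposited values are raw counts per gene made by the authors with featureCounts v2.0.0, as the file headers record, and no strand option stands in those commands, so reads of either strand were counted. Totals of 16855029 to 23796561 counts set the precision of each library, and 44749 of 46318 genes could be named through a RefSeq table. The members, and 7 further lists of lysosome and related genes and 9 of cell markers, were chosen with earlier results of these data known. Of 225 entries 224 were matched, 1 of them through a synonym.

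The filter filterByExpr left 13307 genes. They were scaled by TMM and tested by quasi-likelihood in edgeR 4.0.16 (R 4.3.3), each treatment having its own mean and all 20 libraries sharing the spread. There were 6 contrasts: the 3 treatments against DMSO, the combination against DSHN and against GW3965, and the interaction. Benjamini-Hochberg adjustment ran over all genes of a contrast, and adjusted p under 0.05 was called. Full values were given for up to 4 called members with the largest rises and 4 with the largest falls per pairwise contrast (a compared group having a mean of 5 CPM or more) and for 4 by smallest adjusted p in the interaction. Genes of the other lists came from the 4 smallest adjusted p per list and contrast.

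Alternatives were DESeq2 size factors, total counts alone, no filter, DESeq2 1.42.0, a replicate block, a length correction (library offsets fitted against log2 exon length by a spline of 5 degrees of freedom), both of these, and leaving out each library. Replicates 1 to 3 alone and 4 and 5 alone were added after the values were seen. No pair of replicates agreed within counting noise (chi-square per degree of freedom 2.43 to 13 over 40 pairs). Gene coordinates and exon lengths are those of the files (GRCm39). Promoter sequences are from RefSeq on GRCm38.p6, and no coordinate was converted.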

Additional observations from a re-analysis of the deposited data

Results flagged for a closer look

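In 5 of 164 sets of 5 library values (41 genes in 4 treatments), 1 library lay further from the rest than Dixon's test allows at the 95% level, a share that chance gives in about 1 of 20 sets. Ctsl in combination replicate 5 was at 1549 CPM, with the others at 1630 to 1653. Ctss and Ids in DMSO replicate 3 were at 2121 and 197.2 CPM, with the others at 1947 to 1995 and 179.9 to 184.7. Ctsz and Grn in DSHN replicate 3 were at 686.5 and 2195 CPM, with the others at 631.2 to 643.1 and 2028 to 2071.

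The effect of DSHN differed with and without GW3965 for 35 members by the interaction test (edgeR). Among proteases the log2 values were 0.85 for Ctsl, 0.40 for Ctsk, −0.60 for Ctsd, −0.47 for Ctsb, −0.46 for Lgmn, −0.34 for Tpp1, −0.23 for Ctsa, −0.19 for Ctsh, −0.16 for Ctsc and −0.13 for Ctsz. Among glycosidases and sulfatases they were −0.86 for Sgsh, −0.75 for Gaa, −0.65 for Man2b1, −0.58 for Glb1, −0.56 for Idua, −0.42 for Hexa, −0.41 for Manba, −0.36 for Naglu, −0.32 for Ids, −0.28 for Gla and −0.21 for Gusb. Lipid genes had −0.41 (Asah1), −0.41 (Smpd1), −0.35 (Psap), −0.35 (Lipa) and −0.21 (Ppt1), and Npc1 had −0.91. Membrane proteins had −0.51 (Scarb2), −0.41 (Lamp2), −0.38 (Lamp1), −0.37 (Cd68) and −0.17 (Mcoln1), the pump subunits Atp6v1a and Atp6v0d1 −0.48 and −0.32, and Grn −0.22.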

How the results depend on the processing

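Of the planned changes in scaling, filter and test, those that moved a count of called members by over 1.5 times were no filter and DESeq2, each with 1 member lower with GW3965 in place of 2; the cause was not tested. Over 41 members and 6 contrasts, direction and side of the threshold held in 245 values with DESeq2 size factors, 243 with DESeq2's test, 237 with no filter, 229 with total counts and 198 with the length correction. The same was not counted over all genes. Leaving out each library gave, as higher and lower, 21 to 33 and 2 with DSHN, 31 to 35 and 1 to 3 with GW3965, and 20 to 21 and 8 with both; 7 and 20 to 25 for the combination against GW3965, 12 to 14 and 12 to 15 against DSHN, and 2 and 31 to 33 for the interaction. Replicates 1 to 3 alone gave 18 higher with DSHN and 8 lower for the combination against DSHN. Replicates 4 and 5 alone gave 1 interaction above 0, and turned Tpp1 (−0.096) and Psap (−0.028) against DSHN and Atp6v0d2 with DSHN (0.18). Both sets have fewer libraries, and the split was chosen from these members' own values.

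Same-numbered libraries of different treatments correlated weakly in their deviations from group means: 10 of 30 pairs were over 0.1 (−0.205 to 0.247). Their median was 0.040, beside −0.0092 for other pairs. Of the 20 libraries, 9 correlated best with a library of their own number. Whether the numbers mark a pairing was not tested. With the number as a replicate block 33 members were higher with DSHN in place of 31, beside 1973 in place of 1881 over all genes. Over all contrasts 4 calls of members were gained (Ctsh and Idua higher with DSHN, adjusted p = 0.0472 and 0.0407, Ctsa lower against GW3965, 0.0413, and Ctsb higher against DSHN, 0.0485) and none lost. Calls over all genes rose too. For the combination, lower calls against GW3965 moved to 3984 from 3929 and higher calls against DSHN to 3829 from 3805. The length correction turned these log2 values, with the value under the correction and replicate block together in parentheses. Combination against DMSO: Ctsk −0.17 (−0.17), Gusb 0.23 (0.23), Ids 0.033 (0.033), Lamp2 0.20 (0.20), Cd68 −0.28 (−0.28). Against GW3965: Ctss −0.075 (−0.074), Ctsz −0.091 (−0.091), Gusb 0.078 (0.077), Grn −0.12 (−0.12). Against DSHN: Ctsc 0.10 (0.10), Ctss −0.015 (−0.016), Gusb 0.19 (0.19), Lamp2 0.069 (0.069), Atp6v0d1 −0.14 (−0.15). Interaction: Ctsc 0.10 (0.10), Ctss −0.19 (−0.19), Gusb 0.036 (0.036).

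The members had at least 183 counts in every library. What part counting noise had in the calls of those with the fewest counts, such as Ctsk, was not tested. The dependence of the combination's counts on exon length, overlapping genes counted without strand, and the position of replicates 4 and 5 limit what the combination and DSHN values show.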
